A study of Sus scrofa with 10 samples.

Results

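The genes examined here, in pig loin muscle, are 9 antigen-processing genes: the immunoproteasome subunits PSMB8, PSMB9 and PSMB10, the peptide transporter subunits TAP1 and TAP2, tapasin (TAPBP), beta-2 microglobulin (B2M), and the proteasome activator subunits PSME1 and PSME2. They were chosen by name as genes of 1 pathway with the breed values and the covariation over these pigs already known, and PSMB9 is on the study's own list of genes that differed between the breeds. The breed differences and correlations of these genes are therefore given as a description, with no test. Of the 9, 8 were paired with an identifier among the 25880 genes of the table. B2M was not paired, and it was not analysed here.

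RNA was taken at slaughter, at a weight of about 150 kg, from the Longissimus lumborum of 5 Alentejano (AL) and 5 Bísaro (BI) pigs, and 1 library was sequenced from each pig. AL is a fat, slow-growing Portuguese breed and BI a leaner one. All 10 pigs were purebred castrated males kept in a free-range system on commercial diets, and none carried an experimental treatment, so breed is the only labelled difference between the groups. Pigs are named by breed and number, and values over pigs are given in the order AL44, AL46, AL49, AL52 and AL63, then BI25, BI34, BI36, BI37 and BI42.

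Cells cut cytosolic proteins with the proteasome, whose core holds catalytic subunits that differ in the peptides they release. Under interferon, PSMB8, PSMB9 and PSMB10 replace the constitutive catalytic subunits PSMB5, PSMB6 and PSMB7, and the PA28 activator, built of PSME1 and PSME2, opens the core. TAP1 and TAP2 form the pump that carries peptides into the endoplasmic reticulum, where tapasin holds the pump next to class I molecules whose light chain is B2M. Resting muscle fibres are known for low class I display, while leukocytes and endothelial cells between the fibres carry more of this machinery. In bulk muscle, fewer cells of a type and less RNA per cell cannot be told apart.

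In RefSeq annotation of Sscrofa11.1, 4 of the genes lie together in the class II region of chromosome 7. TAP2 (25045085 to 25056915), PSMB8 (25058456 to 25061666) and TAP1 (25062772 to 25071989) are on the minus strand, and PSMB9 (25072133 to 25077508) is on the plus strand, so TAP1 and PSMB9 are transcribed away from each other from starts 144 bp apart. TAPBP lies farther along the same chromosome on the minus strand (29663491 to 29673453), and 448 bp of it overlap ZBTB22 on the same strand. PSME2 (plus strand, 75154570 to 75157871) and PSME1 (minus strand, 75161830 to 75164531) are also neighbours, and 88 bp of PSME1 overlap EMC9 on the opposite strand. PSMB10 is on chromosome 6 (minus strand, 28544910 to 28547609).

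The stretch shared by TAP1 and PSMB9 is shown first, since a single intergenic segment separates PSMB9 from a transporter gene with almost no reads. It covers chr7:25071990-25072132 of Sscrofa11.1 and is read on the plus strand, toward PSMB9. Capitals mark a GC box, a site read by Sp1-type factors.
TAP1 to PSMB9: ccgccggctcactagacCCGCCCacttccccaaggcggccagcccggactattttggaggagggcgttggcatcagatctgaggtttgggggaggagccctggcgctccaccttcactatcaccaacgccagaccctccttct
No other motif searched was in those 143 bases. A pair of longer motifs lies just outside them, within the first exon of TAP1. An interferon response element was found on the plus strand at chr7:25071970-25071985, 148 bases before the start of PSMB9.
Interferon response element: GAAAGGGAAAACGAAA
A kappa-B site, the motif of NF-kB, was found at chr7:25071911-25071920, 213 bases before the same start.
Kappa-B site: GGAAAGTCCC

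For comparison, the 250 bases before PSMB10 and before PSME1 are shown, the first with interferon response elements and the second without. Both are read on the minus strand, 5′ to 3′ toward the gene, and come from chr6:28547610-28547859 and chr7:75164532-75164781. Capitals mark interferon response elements before PSMB10 and GC boxes before PSME1.
PSMB10: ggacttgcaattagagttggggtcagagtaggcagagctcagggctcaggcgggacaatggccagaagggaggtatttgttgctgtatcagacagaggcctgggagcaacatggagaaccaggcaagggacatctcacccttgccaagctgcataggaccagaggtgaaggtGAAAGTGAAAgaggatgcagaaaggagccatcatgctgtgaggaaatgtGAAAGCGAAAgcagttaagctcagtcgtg
PSME1: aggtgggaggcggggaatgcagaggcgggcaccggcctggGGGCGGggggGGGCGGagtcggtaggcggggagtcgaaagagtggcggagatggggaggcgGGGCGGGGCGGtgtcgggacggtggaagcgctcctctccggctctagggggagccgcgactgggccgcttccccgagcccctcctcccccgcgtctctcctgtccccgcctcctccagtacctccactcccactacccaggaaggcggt

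Motifs were searched on both strands, and matches of 1 motif may overlap. The interferon response element was GAAA and GAAA with any 2 bases between, kappa-B was GGGA and TTTCC with any base between, and the gamma-activated site was TTC and GAA with any 3 bases between. The GC box was GGGCGG and the CCAAT box CCAAT. Among the 250 bases before each of 19559 RefSeq genes, 3.01% of windows held the interferon response element, 0.399% kappa-B, 6.11% the gamma-activated site, 45.9% the GC box and 31.9% the CCAAT box. Of the 8 genes with values, only PSMB9 and PSMB10 had the interferon element in that window, with 2 matches each. PSMB9 alone of them had kappa-B there. The windows of PSMB8, TAP1, TAP2, TAPBP, PSME1 and PSME2 held neither, and none of the 8 held the gamma-activated site. A match is a description of the letters, and binding was not measured.

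**Figure D1:**
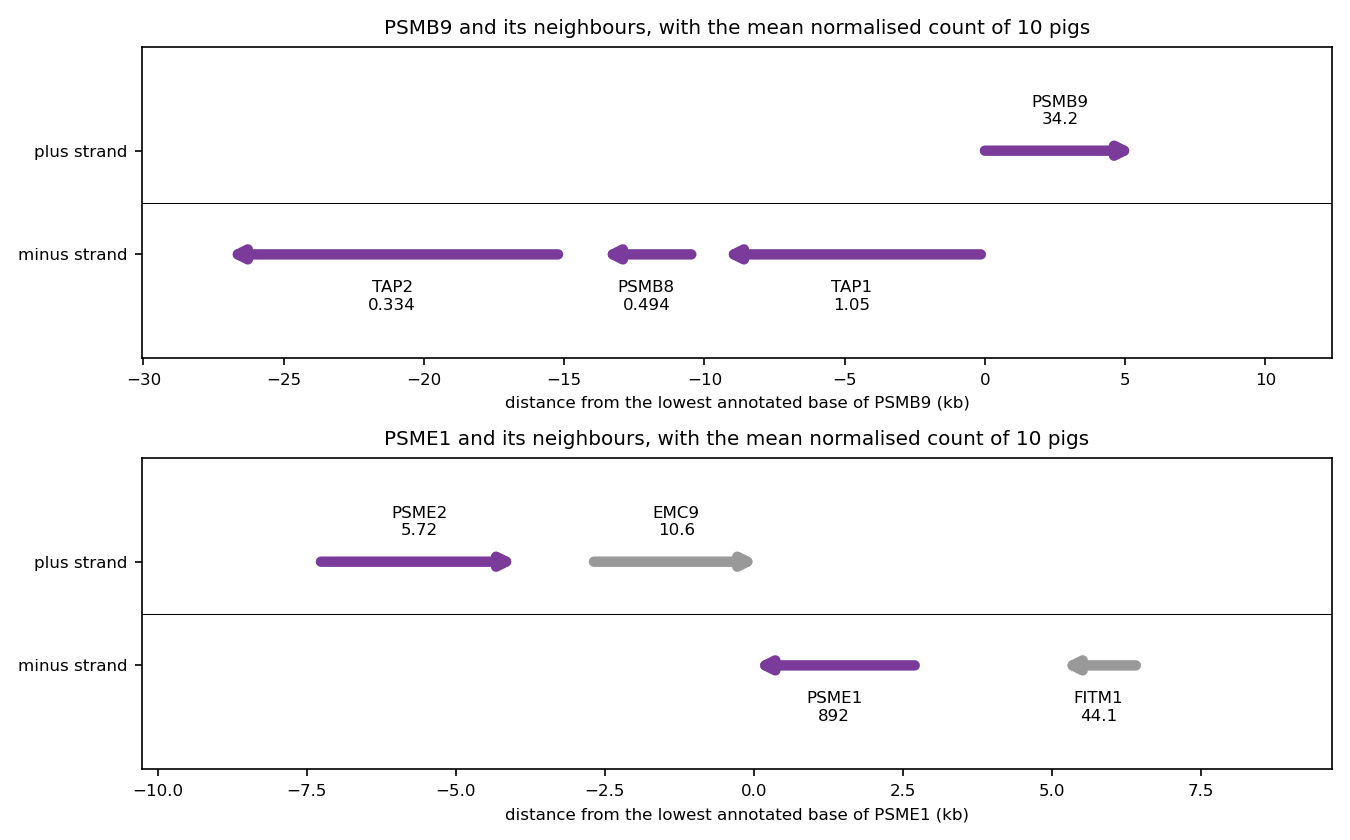
Gene positions around PSMB9 (top) and PSME1 (bottom) by distance in kb, with arrows pointing in the direction of transcription, the plus strand above and the minus strand below the line, and the mean normalised count of the 10 pigs under each name. PSMB9 stands at 34.2 and its neighbour TAP1 at 1.05, while PSME1 stands at 892 and its partner PSME2 at 5.72. Genes whose names begin with LOC are not drawn.

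The libraries held 2298045 to 3343194 reads on genes, and 9112 to 10308 genes had at least 1 read. These are only the reads assigned to genes. The study reports far more sequenced reads per sample, nearly all of them aligned, and the reason for the gap was not tested. Values are normalised counts, which are reads divided by a size factor for each pig, and 3 reads correspond to 2.47 to 3.39 normalised counts. AL44 stood apart, with the lowest summed level of 7 muscle fibre markers (18210, against 25150 or more in each other pig). Its adipocyte marker sum was the highest (59.5, with medians of 24.9 in AL and 42.1 in BI). Most adipocyte marker reads over all pigs were on LIPE (144), CIDEC (118) and LPL (58). PLIN1 (21 reads) went the other way, with its lowest AL level, 0.944, in AL44. FABP4, ADIPOQ and LEP had 15, 3 and 1 reads. Genes on the opposite strand overlap LIPE, CIDEC and PLIN1. AL44 was also lowest in the endothelial (1577, against 1803 or more) and fibroblast (14.2, against 19.0 or more) marker sums. Results that rest on AL44 are given with and without it. Strand limits every level below. ND6, the only protein gene on the light strand of mitochondrial DNA, stood at 99660 normalised counts per kb, 69.4-fold above the highest of the 12 heavy-strand protein genes (76.3 to 1436 per kb). The libraries were stranded, and the strand setting used in counting is not given in the sources used here. RNA of a gene and RNA from the strand opposite to it therefore cannot be told apart in these values. Neighbours on the opposite strand are named below for some genes only, and the limit holds for the others too.

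Reads on the 8 genes were very uneven. Of 9984 reads in all pigs, 9221 (92.4%) were on PSME1 and 763 on the other 7 genes. Per kb of exon, the mean level over the 10 pigs was 918 ± 88.4 for PSME1 and 31.4 ± 19.2 for PSMB9 (SD, n = 10). PSMB10 (8.68 ± 3.85), TAPBP (6.79 ± 2.04) and PSME2 (6.76 ± 5.36) came next and did not differ beyond their spread over pigs. PSMB8 (0.408 ± 0.555), TAP1 (0.367 ± 0.517) and TAP2 (0.103 ± 0.235) were lowest, with SDs above their means. Partners of 1 complex thus stood at unlike levels per kb, PSME1 against PSME2 and PSMB9 against PSMB8, and for PSME1, with its 3′ overlap with EMC9 (mean normalised count 10.6), the strand limit applies.

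Across the series, 3807 genes reached a summed normalised count of 50 in at least 1 breed and were tested. PSMB9, TAPBP and PSME1 were among them. The sums of PSMB10 were 49.4 in AL and 35.9 in BI, just outside, and those nearest inside were 97.1 in AL and 146 in BI for TAPBP. Sums for the other 4 genes were at most 30.3. Using limma with Benjamini-Hochberg adjustment, 0.0263% of tested genes (1 of 3807) had an adjusted p under 0.05, and that gene, INTS11, is named after its values were seen. DESeq2 on the recovered reads called 1.45% (55 of 3800). Every AL pig was above every BI pig in 1.08% of genes (41 of 3807). Of the 3 genes tested here, limma called 0 (2, PSMB9 and TAPBP, were under an unadjusted p of 0.05), edgeR called 0 and DESeq2 called 1, PSMB9. Since the genes were chosen with this contrast known, nothing is read from those counts.

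PSMB9, also known as LMP2, is the immune subunit that replaces PSMB6. Its normalised counts were 31.2, 64.1, 60.4, 41.8 and 58.8 in AL and 11.5, 16.5, 18.1, 29.1 and 10.6 in BI. Every AL pig was above every BI pig. The gap between the breeds was narrow, with 33 reads in AL44 and 29 in BI37, the lowest AL and the highest BI pig. Mean levels were 51.3 ± 14.1 in AL and 17.2 ± 7.38 in BI (SD, n = 5 each), a ratio of 2.99 and a log2 fold change of 1.56 (SE 0.30) on the log2(normalised count + 1) scale. The log2 fold change was 1.73 (SE 0.29) without AL44 and 1.77 (SE 0.29) without BI37. Besides TAP1, a long non-coding RNA gene, LOC110261500, lies on the opposite strand, 4576 bp from PSMB9. It had no value here, and the strand limit applies to PSMB9 as well.

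PSMB10, the immune counterpart of PSMB7, was read at 11.3, 8.37, 14.0, 8.89 and 6.79 normalised counts in AL and at 5.77, 11.0, 3.45, 3.01 and 12.7 in BI. The breeds overlapped, with 2 BI pigs inside the AL range. The means were 9.88 ± 2.83 in AL and 7.18 ± 4.42 in BI (SD, n = 5 each), from 50 and 36 reads, a difference smaller than the spread between pigs. PSKH1, 847 bp away on the opposite strand, had a mean normalised count of 8.79. PSMB8, the immune counterpart of PSMB5, had 4 reads in all AL pigs and 1 in all BI pigs, and 6 of 10 libraries had none. A breed difference in PSMB8 was not detectable at these read counts.

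The 2 transporter genes were close to the floor. TAP1 had 6 reads over the 5 AL pigs, 4 of them in AL63, and 4 reads over the 5 BI pigs, in BI34 and BI37. TAP2 had 3 reads over AL and 0 over BI. No fold is given for either, since both breeds were at or near the limit set by 3 reads per library. TAP1 therefore did not show, at these read counts, the breed difference seen in PSMB9, its neighbour 144 bp away. Whether the 2 genes differ in their response to breed was not tested.

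TAPBP, the tapasin that bridges the transporter and class I molecules, was read at 29.3, 15.8, 16.2, 17.8 and 18.1 normalised counts in AL and at 25.5, 26.4, 38.8, 28.1 and 27.5 in BI. Of the AL pigs, 4 of 5 were below every BI pig, and AL44 was above 4 of 5 BI pigs. Means were 19.4 ± 5.59 in AL and 29.3 ± 5.42 in BI (SD, n = 5 each), with a log2 fold change of -0.59 (SE 0.24). Without AL44 the AL values ran from 15.8 to 18.1 and the log2 fold change was -0.74 (SE 0.23). AL44 is the pig with the lowest muscle fibre and highest adipocyte marker sums, and the part of these in its TAPBP level was not tested. The direction was opposite to that of PSMB9.

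PSME1, or PA28 alpha, had 795, 852, 762, 875 and 874 normalised counts in AL and 1007, 931, 1026, 848 and 946 in BI. Of the BI pigs, 4 of 5 were above every AL pig, and BI37 was inside the AL range. Its means of 832 ± 50.9 in AL and 952 ± 70.4 in BI (SD, n = 5 each) differed by a log2 fold change of -0.19 (SE 0.12). With 1 pig left out, the log2 fold change ran from -0.23 (SE 0.13) without BI37 to -0.16 (SE 0.13) without AL49. With 706 to 1223 reads per pig, PSME1 had the smallest spread of the 8 genes, with a coefficient of variation of 9.62% over the 10 pigs, against 61.1% for PSMB9 and 30.1% for TAPBP.

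PSME2, or PA28 beta, had 17.0, 2.79, 1.08, 2.67 and 3.39 normalised counts in AL and 7.41, 3.30, 5.17, 7.01 and 7.39 in BI. AL44 held 18 of the 28 AL reads and stood above every other pig, while 3 AL pigs were below every BI pig. The means of 5.38 ± 6.55 in AL and 6.06 ± 1.80 in BI (SD, n = 5 each) differed by less than the spread. On the log2(normalised count + 1) scale the difference, AL minus BI, was -0.54 with all pigs and -1.03 without AL44.

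**Figure D2:**
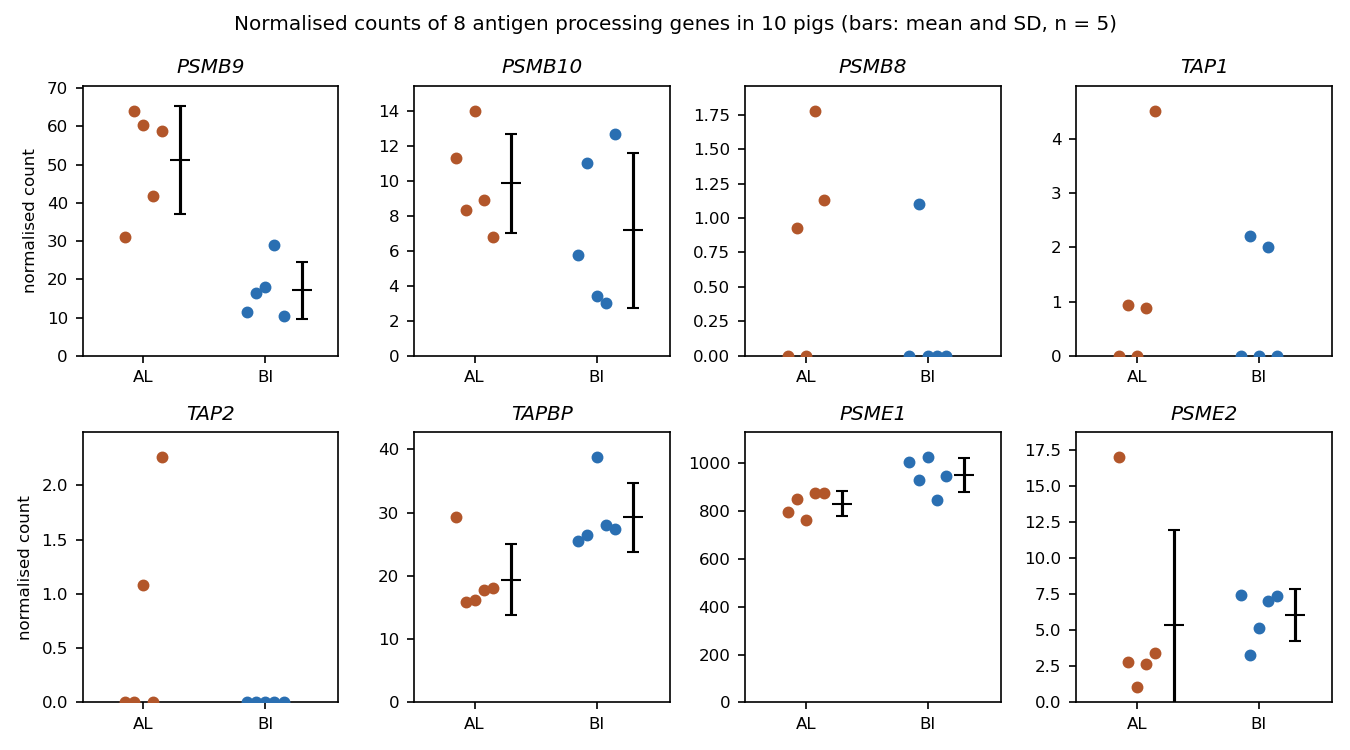
Normalised counts (vertical axes, from 0, on a scale of their own in each panel) of the 8 genes in the 5 AL and 5 BI pigs, 1 point per pig, with the mean and SD (n = 5) beside the points for the 5 genes with a mean above 3 (the AL bar of PSME2 is cut at 0). The 5 AL points of PSMB9 (31.2 to 64.1) lie above the 5 BI points (10.6 to 29.1), and AL44 is the high AL point of TAPBP (29.3) and PSME2 (17.0).

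Immune and constitutive forms of a subunit could be compared in 1 place of the core. PSMB5 and PSMB6 were not paired with an identifier, and were not analysed here. PSMB10 reads stood beside PSMB7 reads as 12 to 1, 9 to 3, 13 to 1, 10 to 4 and 6 to 7 in the AL pigs and as 7 to 4, 10 to 4, 4 to 2, 3 to 3 and 12 to 6 in the BI pigs. The log2 ratio was 1.55 ± 1.25 in AL and 0.68 ± 0.43 in BI (SD, n = 5 each), and the AL range, -0.20 to 2.85, covered the BI range. PSMB7 had only 16 reads over AL and 19 over BI, and its low counts limit the ratio.

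The covariation of 5 genes, the 3 tested plus PSMB10 and PSME2, was examined over the 10 pigs on the log2 scale, 10 pairs in all. PSMB9 ran opposite to TAPBP (Pearson r = -0.76, Spearman rho = -0.64) and to PSME1 (r = -0.75, rho = -0.70). With each value taken as a deviation from its breed mean, r was -0.33 and -0.34. PSMB9 and PSME2 had r = -0.53 (rho = -0.64), -0.52 in deviations from breed means and -0.76 without AL44. Without BI42 and BI25, the pigs farthest from the median of PSMB9, r was -0.88 with TAPBP and -0.66 with PSME1. The points share their library and size factor, and with the breeds as separate clusters the pooled coefficients describe the 2 clusters as much as the pigs.

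TAPBP and PSME2 had r = 0.70 and rho = 0.72, and their deviations from breed means had r = 0.71. Without AL46 and AL49, farthest from the TAPBP median, r was 0.52, and without AL44 it was 0.73. The partners PSME1 and PSME2 had r = 0.21 over all pigs but 0.72 without AL44, 0.52 with all pigs when library size left out the 10 highest genes, and -0.05 in deviations from breed means. TAPBP and PSME1 had r = 0.57 (rho = 0.32), but 0.05 in deviations from breed means. PSMB9 and PSMB10, the 2 immune subunits with enough reads to compare, had r = 0.13 over all pigs and -0.57 within breeds. The coefficients of PSMB10 and PSME2 rest on 1 to 18 reads per pig.

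**Figure D3:**
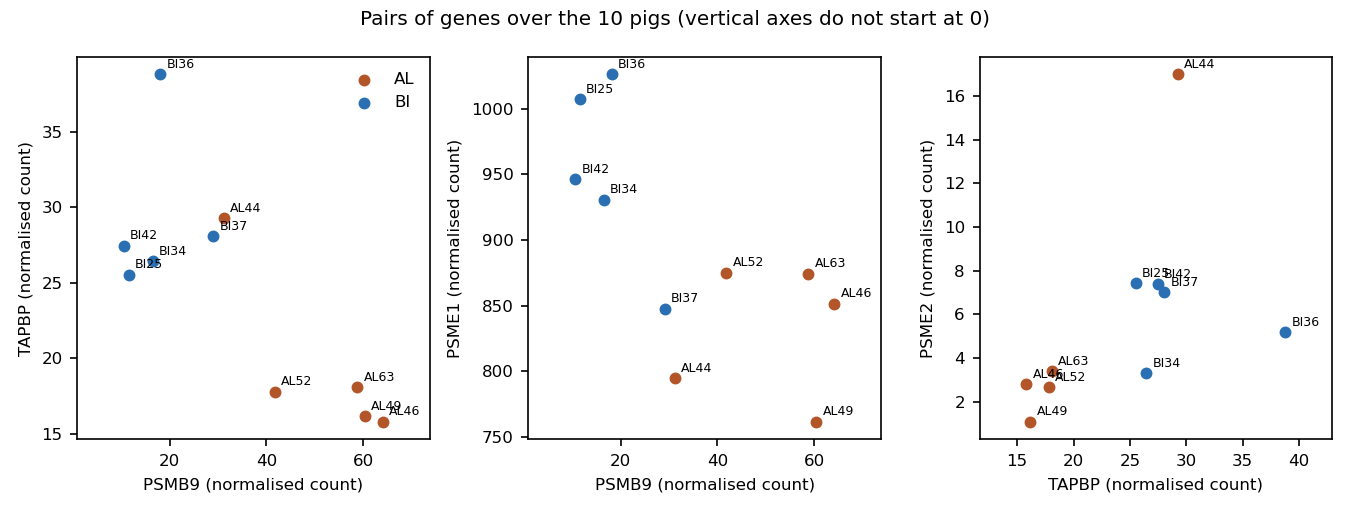
Normalised counts of PSMB9 against TAPBP, PSMB9 against PSME1, and TAPBP against PSME2, 1 point per pig, with AL in orange and BI in blue; vertical axes do not start at 0. AL44 and BI37 are the AL and BI pigs nearest each other on the PSMB9 axis (31.2 and 29.1), and AL44 stands alone at the top of the PSME2 axis (17.0).

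Among the 1582 other genes whose normalised counts averaged 50 or more, the 5 whose log2 values followed PSMB9 most closely over the 10 pigs were ATP6V1C1 (r = 0.93), a subunit of the vacuolar proton pump, KLB (r = 0.92), the co-receptor of endocrine fibroblast growth factors, SH2D7 (r = 0.92), ENSSSCG00000038756 (r = 0.91) and GUCD1 (r = 0.88). In deviations from breed means the same genes had r of 0.83, 0.64, 0.71, 0.74 and 0.63 with PSMB9. These genes were picked by their r over the same pigs, so the r in deviations is not independent of that choice. The study itself found ATP6V1C1 and KLB higher in AL. ATP6V1C1 averaged 264 ± 69.8 normalised counts in AL and 157 ± 27.9 in BI, and KLB 132 ± 6.16 and 77.5 ± 14.9 (SD, n = 5 each). The mean standardised level of the 8 genes ran closest to POMT2 (r = 0.91), DHX16 (0.90), PTP4A3 (0.86), SHMT1 (0.84) and ENSSSCG00000012895 (0.83). Standardising weights all 8 genes alike, so PSMB8, TAP1 and TAP2, with 5, 10 and 3 reads in all, count as much in that mean as PSME1.

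The rest of the pathway was read from 8 lists with 138 symbols, covering the proteasome core, regulatory cap, assembly factors, peptide loading, class I related, class II, regulator and interferon response genes. Of these, 111 were paired and 33 passed the filter. None of the 33 had an adjusted p under 0.05 with limma (smallest 0.356, Benjamini-Hochberg over 3807 genes) or DESeq2. At an unadjusted limma p under 0.05, 1 was higher in AL and 2 in BI, 9.09% of the 33 beside 9.40% of all genes tested. Their median log2 fold change was -0.03, beside -0.02 over all genes tested.

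In the constitutive core, 5 of 11 paired genes were tested and 0 passed, with a median log2 fold change of -0.11. PSMB3, a structural beta subunit, was highest at 3831 ± 728 normalised counts in AL and 3989 ± 733 in BI (SD, n = 5 each). PSMA7 (866 ± 226 and 917 ± 85.7) and PSMB4 (253 ± 26.7 and 247 ± 19.1) were also close between breeds relative to their spread. LSM14B overlaps PSMA7 on the opposite strand. PSMA5 had 589 ± 55.2 in AL and 777 ± 104 in BI, a log2 fold change of -0.39 (SE 0.14) that did not pass (limma adjusted p = 0.356). PSMB1 and PSMB2, which every proteasome core contains, had 26 and 7 reads in all.

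In the regulatory cap, which unfolds tagged proteins, 12 of 20 paired genes were tested and 0 passed. PSMD13, a lid subunit, averaged 7747 ± 1051 in AL and 6454 ± 1130 in BI (SD, n = 5 each), and its annotated neighbours on the opposite strand are SIRT3 at 34 bp and COX8H at 345 bp. PSMC5 (334 ± 46.4 and 307 ± 51.0), PSMC1 (146 ± 34.3 and 139 ± 36.4) and PSMD3 (55.2 ± 11.4 and 58.5 ± 15.4) are cap subunits with close means. FTSJ3 overlaps PSMC5, and NRDE2 overlaps PSMC1, on the opposite strand. PSMC4 was at 13.2 ± 10.6 in AL and 22.2 ± 7.32 in BI, and it did not pass the adjusted test. The assembly and alternative activator genes PSME4, PSME3, PSMF1 and POMP had mean normalised counts of 7.06, 6.03, 4.01 and 1.74, and 0 of 5 paired genes reached the filter.

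In the peptide loading list, 2 of 11 paired genes were tested and 0 passed. The chaperones HSP90B1 (24.0 ± 10.7 in AL and 28.1 ± 9.46 in BI) and CALR (5.34 to 18.3 in AL and 5.17 to 15.7 in BI) overlapped between breeds. TAPBPL, a tapasin-related peptide editor, had 16 reads in AL and 44 in BI, below the filter, and HSPA5 had 34 and 32. The class I heavy chains of the SLA complex were not paired with an identifier and were not analysed here, and the class I related genes FCGRT (19.6 to 26.0 and 16.5 to 28.6) and MR1 (10.9 ± 7.90 and 17.7 ± 7.58) did not pass.

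For class II and regulators, 3 of 6 and 4 of 19 paired genes were tested and 0 passed. CIITA, the class II transactivator, averaged 917 ± 141 in AL and 971 ± 174 in BI (SD, n = 5 each), and DEXI overlaps it on the opposite strand. CD74, the invariant chain, averaged 105 ± 16.1 and 98.3 ± 21.1, and SLA-DQB1 51.7 ± 17.5 and 37.1 ± 17.5. STAT3 (58.0 ± 18.2 and 44.1 ± 28.7), RFXANK (31.5 ± 7.17 and 41.1 ± 4.88) and JAK1 (12.3 ± 5.99 and 9.37 ± 4.58) did not pass.

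Of 37 paired interferon response genes, 5 were tested and 0 passed, and 11 had no read in any pig, CXCL9, CXCL10, RSAD2 and BST2 among them. HERC5, an interferon-induced ligase, averaged 837 ± 325 in AL and 1230 ± 472 in BI (SD, n = 5 each), with overlap between breeds. RIGI, a sensor of viral RNA, averaged 313 ± 32.8 and 343 ± 52.5, and IRF7, a transcription factor of interferon genes, ran from 76.9 to 130.3 in AL and from 86.5 to 112 in BI. ZNFX1 was at 19.6 ± 1.11 in AL and 12.7 ± 5.35 in BI, a log2 fold change of 0.69 (SE 0.31) with a limma adjusted p of 0.505. The 5 tested genes had a median log2 fold change of -0.12, beside -0.02 over all genes tested. UBE2L6, below the filter and named after its values were seen, had 31 reads over AL and 7 over BI.

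**Figure D4:**
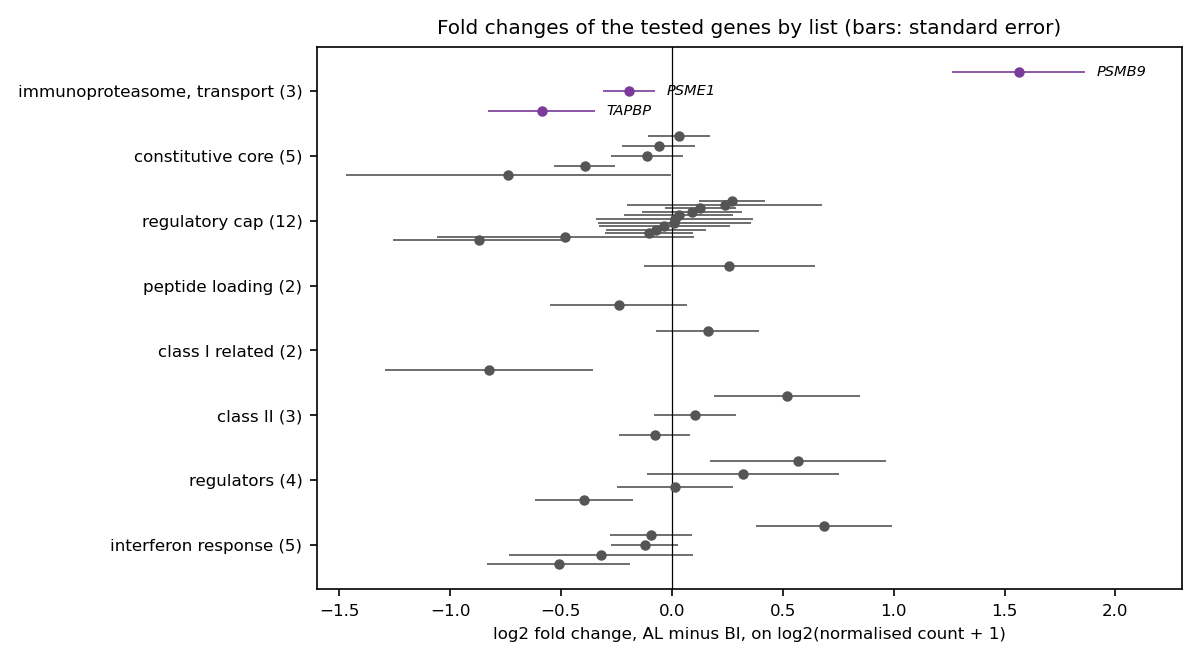
Log2 fold change (AL minus BI, horizontal axis) with its standard error for each tested gene, grouped by list, with the number of tested genes in brackets and the antigen-processing genes chosen here in purple. PSMB9 lies at 1.56, while the 33 genes of the other lists lie between -0.87 and 0.69.

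Cell type markers were read beside these values. For leukocytes, 16 of the genes paired with 27 marker symbols had a read, and the summed level was 5836 to 6711 in AL and 4334 to 7054 in BI. Most of it came from ITGAM (5519 ± 413 in AL and 5067 ± 1018 in BI, SD, n = 5 each). LOC110259903 overlaps ITGAM on the opposite strand, so the strand limit applies. The lymphocyte markers CD3E, CD4, CD2, MS4A1 and CD79B were at 0 in every pig. Some myeloid and general leukocyte markers were read, with 161 reads over AL and 119 over BI for CD68 and 59 in all for CD14. Normalised counts were 265 ± 49.1 and 288 ± 57.7 for CSF1R and 410.4 ± 19.3 and 475 ± 56.9 for CORO1A. HMGXB3 lies 111 bp from CSF1R on the opposite strand, so the strand limit applies there too. Others of that kind had almost none, with 3 reads in all for PTPRC and 1 each for TYROBP, AIF1 and CD163. FCER1G, LYZ, LAPTM5 and MRC1 had 0. The 9 endothelial markers summed to 1577 to 3015 in AL and 1803 to 3003 in BI, most of it EGFL7 (2151 ± 553 and 2049 ± 465). Markers near the floor went both ways, with 23 and 11 reads over AL and BI for PECAM1, 15 and 4 for EMCN, 17 and 16 for CDH5 and 4 and 6 for TIE1. The 6 fibroblast markers summed to 14.2 to 112 in AL (median 48.6) and 19.0 to 43.3 in BI (median 29.7). Each of the 6 had more reads over AL than over BI, the direction of PSMB9. Reads were 142 and 79 for COL1A1, 77 and 56 for COL3A1, 27 and 9 for COL1A2 and 17 and 10 for DCN. LUM had 5 and 2, and PDGFRA 1 and 0. The 7 muscle fibre markers, which fit the labelled tissue, summed to 18210 to 37150 in AL and 32630 to 51490 in BI. None of these marker sums separated the breeds as PSMB9 did, and their part in its level was not tested.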

How the data were processed

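Reads of 10 libraries, 1 per pig, were trimmed by the authors with Trim Galore 0.5.0, aligned to Sscrofa11.1 with HISAT2 2.1.0, converted with SAMtools 1.9 and counted per gene with HTSeq 0.11.1. The deposited signal values are these counts divided by DESeq2 size factors. The deposited log2 fold change, its standard error and Wald statistic (scores) and the p-values are the authors' own comparison and were not used.

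Each pig's values were divided by the smallest value above 0, and 100.0% were whole numbers within 0.01. In BI37 1 read is worth so nearly 1 normalised count that this check is weaker. The recovered reads, BI37 included, entered only DESeq2 1.42.0 and edgeR 4.0.16 as alternatives. The main fit was limma 3.58.1 with trend on log2(normalised count + 1), Benjamini-Hochberg adjusted, for genes whose counts summed to 50 or more in a breed, checked on simulated data. Symbols paired 14857 of 25880 identifiers. Sequences and positions come from RefSeq (Sscrofa11.1), while counting used Ensembl models. The genes and lists were chosen with earlier results of these data known. Named genes are the chosen genes, up to 4 highest per list and any called, genes overlapping or within 5000 bp, and the 5 most alike by Pearson r. Alternatives were other pseudocounts, filters, tools and library sizes and leaving out each pig. No batch is given. Pigs are separate animals, and intervals between pigs include counting error. Some genes of the lists are not reported here by name.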

Additional observations from a re-analysis of the deposited data

Results flagged for a closer look

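A set of 3 values stood far from the other 4 pigs of their breed, out of 10 groups of 5 examined among these genes. For normally distributed values, chance flags about 1 in 20 such groups. Whether these counts are so distributed was not tested. Tapasin (TAPBP) was at 29.27 normalised counts in AL44, against 15.8 to 18.1 in the other AL pigs. It was at 38.79 in BI36, against 25.53 to 28.06 in the other BI pigs. PSME2 was at 16.99 in AL44, against 1.08 to 3.39 in the other AL pigs. For each, the gap to the nearest pig divided by the range of the breed (0.83, 0.809 and 0.855) exceeded the critical value of 0.71. AL44 had the lowest muscle fibre marker sum, and its part in those values was not tested.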

How the results depend on the processing

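The number of genes that differed between breeds depended on the settings. It was 1 with limma and 2 with a pseudocount of 10, 0 where counts had to average 50 or more in each breed (112 genes at an unadjusted p under 0.05), 40 with no filter and 55 with DESeq2. Leaving out 1 pig gave 1 to 40, with 40 without AL44, 4 without AL52 or BI37, and 3 without BI36. The cause was not tested. PSMB9 was among the calls with DESeq2, with no filter, without AL44 and without BI37. Every alternative run kept the direction of the log2 fold changes of PSMB9, TAPBP and PSME1, and leaving out 1 pig gave 1.42 to 1.77, -0.74 to -0.48 and -0.23 to -0.16. With 1 pig left out, the log2 difference of PSMB10 ran from 0.34 to 0.78 and that of PSME2 from -1.03 to -0.25, and the PSMB10 to PSMB7 log2 ratio differed by 0.54 to 1.30. A pseudocount of 10 gave 0.24, -0.14 and 0.305 for the same values, against 0.55, -0.54 and 0.87, and 1.18 for PSMB9. No pathway list gene was called with DESeq2, another library size or 1 pig left out. Correlations without AL44 were added after seeing the data. No paired analysis was possible because pigs of the 2 breeds share no numbers. Low read counts limit PSMB8, TAP1 and TAP2, with at most 4 reads in any pig. Whether sequencing depth, the share of reads assigned to genes or the strand used in counting set those counts was not tested.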
